A study of Mus musculus with 7 samples.

Results

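Dexamethasone, a synthetic glucocorticoid, was compared with ethanol vehicle in mouse embryonic fibroblasts that lack Klf15. The comparison rested on 4 of the 7 ChIP-seq libraries of the series: 2 Klf15-/- libraries exposed to vehicle and 2 Klf15-/- libraries exposed to dexamethasone (dex), each for 1 h. Chromatin was precipitated with an in-house antibody against the glucocorticoid receptor (NR3C1). The cells were cultured from embryos of 14 to 17 days post coitum and used between passages 4 and 11, in medium with serum, and both treatments share the same Klf15-/- genotype. The genotype cannot be checked from summit positions, and the dex concentration is not given in the sources used here. The other 3 libraries were wild type, 1 with vehicle and 2 with dex for 1 h. Per the series' design text, the wild-type vehicle library was pooled because starting material was scarce, so its values have no replicate. They were read only at the sites of the Klf15-/- lists. Nothing in the labels tells whether the paired libraries are separate cultures, and the p-value below therefore measures a spread that may be technical.

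The glucocorticoid receptor is a ligand-activated transcription factor of the nuclear receptor family. Without hormone it is held largely in the cytoplasm by chaperones, and with hormone it moves to the nucleus, binds response elements in accessible chromatin, and raises or lowers the transcription of genes of metabolism, inflammation and the cell matrix. In fibroblasts glucocorticoids are known for damping inflammatory and matrix gene expression. Klf15 encodes a Krüppel-like zinc-finger factor whose gene is itself a receptor target in several tissues.

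Each library was represented by a list of peak summits, single positions with a score given by the authors. Summits of the 4 Klf15-/- lists on chromosomes 1 to 19 were joined into sites wherever neighbours lay at most 200 bp apart. The deposited lists held 7325 and 8088 summits with vehicle and 19999 and 20169 with dex. On chromosomes 1 to 19 the numbers were 6477 and 7693 with vehicle and 19432 and 19627 with dex. The dex lists, with 19529.5 ± 137.9 summits (mean ± SD, n = 2), were 2.76 times as long as the vehicle lists, with 7085 ± 859.8 (n = 2), and the treatments did not overlap. An exact two-sided permutation test of 2 libraries against 2 gave p = 0.333, the smallest value that design allows. The read depth behind the lists is unknown, and the length of a list also depends on it.

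The 4 lists gave 27747 sites, of which 11035 fell into 3 classes. Gained sites were held by both dex lists and no vehicle list, and there were 8151 of them (29.4% of all sites). Kept sites were held by all 4 lists, and there were 2735 (9.86%). Lost sites were held by both vehicle lists and neither dex list, and there were 149 (0.537%). These shares follow from the rule that defined the classes and are given as a description. The remaining 16712 sites lay between the classes or rested on a single list: 4489 and 4679 were in the first or second dex list alone, and 1769 and 1173 in the first or second vehicle list alone.

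**Figure D1:**
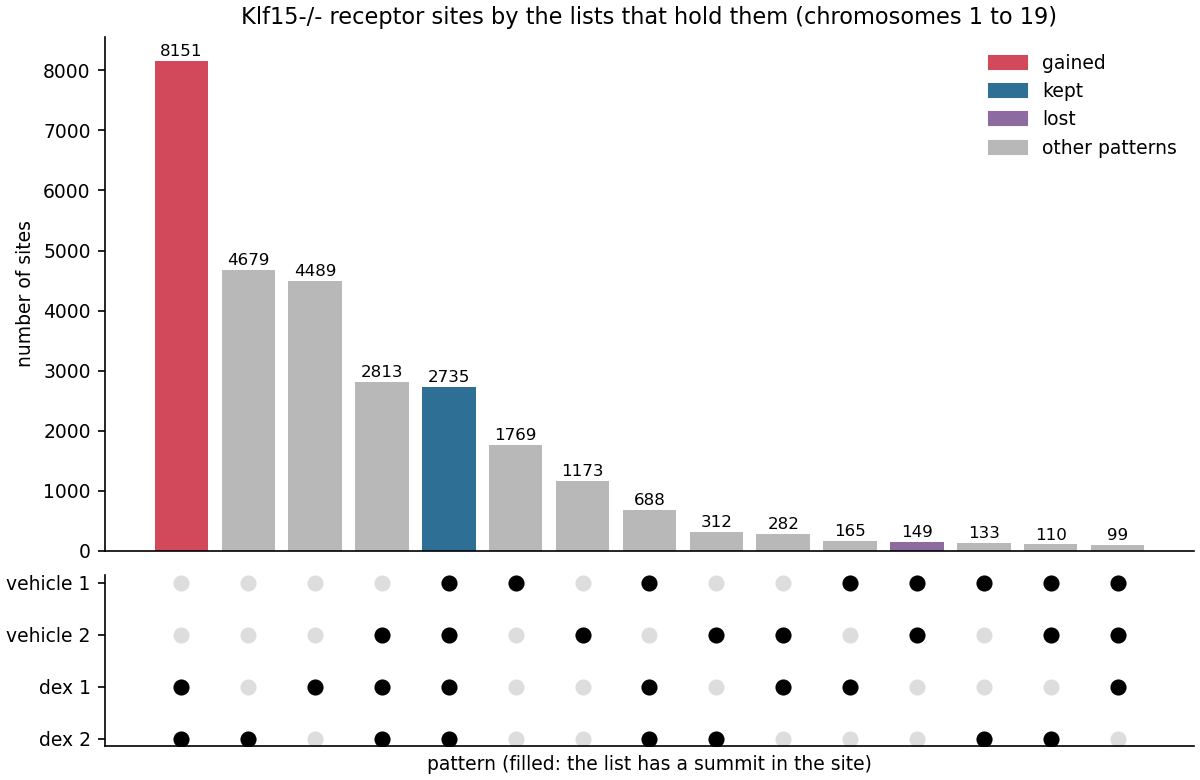
Number of receptor sites (y axis) for each of the 15 patterns of Klf15-/- lists that held them, with filled dots under each bar marking the lists with a summit in the site. The gained pattern was the most frequent with 8151 sites, and 149 sites had the lost pattern.

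Sites found with vehicle were in most cases also found with dex. Of the 3093 sites held by both vehicle lists, 2735 were held by both dex lists (88.4%, 95% interval 87.2 to 89.5%), 209 by a single dex list (6.76%, 5.90 to 7.70%) and 149 by none (4.82%, 4.09 to 5.63%). The converse did not hold for dex sites. Of the 14387 sites held by both dex lists, 8151 had no vehicle summit (56.7%, 55.8 to 57.5%), 3501 had a summit of a single vehicle list (24.3%) and 2735 had both. The lists were also cut to the 6477 summits with the highest scores, so that all 4 were equally long. There the gained share of dex sites was 36.7%, and the kept share of sites of both vehicle lists fell to 66.0% (1937 of 2935). With 1835 gained, 1937 kept and 576 lost sites, kept sites outnumbered gained sites there.

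The first vehicle library stood apart from the second, and the size of the kept class rested on it. Its list had 364 neighbouring summits under 200 bp apart, against 3 in the second vehicle list and at most 2 in a dex list. Of its sites, 30.2% (29.1 to 31.4%) were in no other Klf15-/- list, against 15.3% (14.5 to 16.1%) for the second vehicle library. Sites of the first vehicle library that the second lacked were held by both dex lists in 688 of 2755 cases. The corresponding count for the second vehicle library was 2813 of 4580 (61.4%). Without the first vehicle library the kept sites numbered 5527 and the gained sites 8844. Without the second, there were 3392 kept and 10955 gained sites. Lost sites depended on both, with 1340 without the first and 1969 without the second vehicle library. With a single dex list required, gained sites numbered 12918 without the first and 12730 without the second dex library, and lost sites 263 and 268.

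Score percentiles give the rank of a site's summit within its own list, from 0 for the lowest to 100 for the highest. They depend on the length of the list, so values from lists of different length stand side by side as a description only. Gained sites covered the whole range of the dex lists. Their percentiles ran from 0.0978 to near 100 in the first dex list, with a median of 50.1 and quartiles of 29.6 and 70.9. In the second dex list the median was 51.3 and the quartiles 29.8 and 71.4. Above percentile 80 there were 1221 gained sites in the first list and 1287 in the second (15.8% of the class). At or below percentile 20 there were 1280 and 1250. The class thus held strong and weak dex peaks in similar numbers at either end.

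Kept sites ranked higher in the same dex lists. Their median percentiles were 85.4 and 85.0 with dex, and 61.6% and 60.7% of them stood above percentile 80. In the vehicle lists their medians were 57.9 in the first and 76.1 in the second. Dex sites with a summit of a single vehicle list lay between the classes, with medians of 65.6 and 66.0 in the dex lists. The rank with dex was therefore higher with each vehicle list that also held the site, in both dex lists. Dex sites found in a single dex list and no vehicle list had medians of 20.8 and 20.8. Lost sites had a median percentile of 82.9 in the first vehicle list and 55.3 in the second, and 80 of the 149 were above percentile 80 in the first against 26 in the second.

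The gained class made up a similar part of the strongest and the weakest peaks of a dex list, and was most frequent in the middle. In the first dex list it held 33.0% (31.5 to 34.5%) of the sites of the lowest score quintile, 51.6% of the third and 31.4% of the highest. In the second dex list the shares were 31.9% (30.5 to 33.4%), 51.6% and 32.8% (31.3 to 34.3%). In the lowest quintile most of the other sites were in no other list, with 56.3% in the first dex list and 57.9% in the second. In the highest quintile most of the other sites had vehicle summits: kept sites made up 43.4% (41.8 to 44.9%) and 42.3% (40.7 to 43.8%), against 1.03% and 1.10% in the lowest.

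The second vehicle list behaved like the dex lists in this respect, and the first did not. Kept sites were 10.6% (9.12 to 12.3%) of the lowest quintile of the second vehicle list and 79.0% (76.8 to 81.0%) of its highest, where 0.455% (0.183 to 0.934%) were in no other list. In the first vehicle list kept sites were 35.7% (32.8 to 38.6%) of the lowest quintile and 58.0% (55.2 to 60.8%) of the highest, where 248 of 1239 were in no other list. Lost sites made up 6.46% (5.15 to 7.97%) of the highest quintile of the first vehicle list and 1.69% (1.11 to 2.46%) of that of the second.

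**Figure D2:**
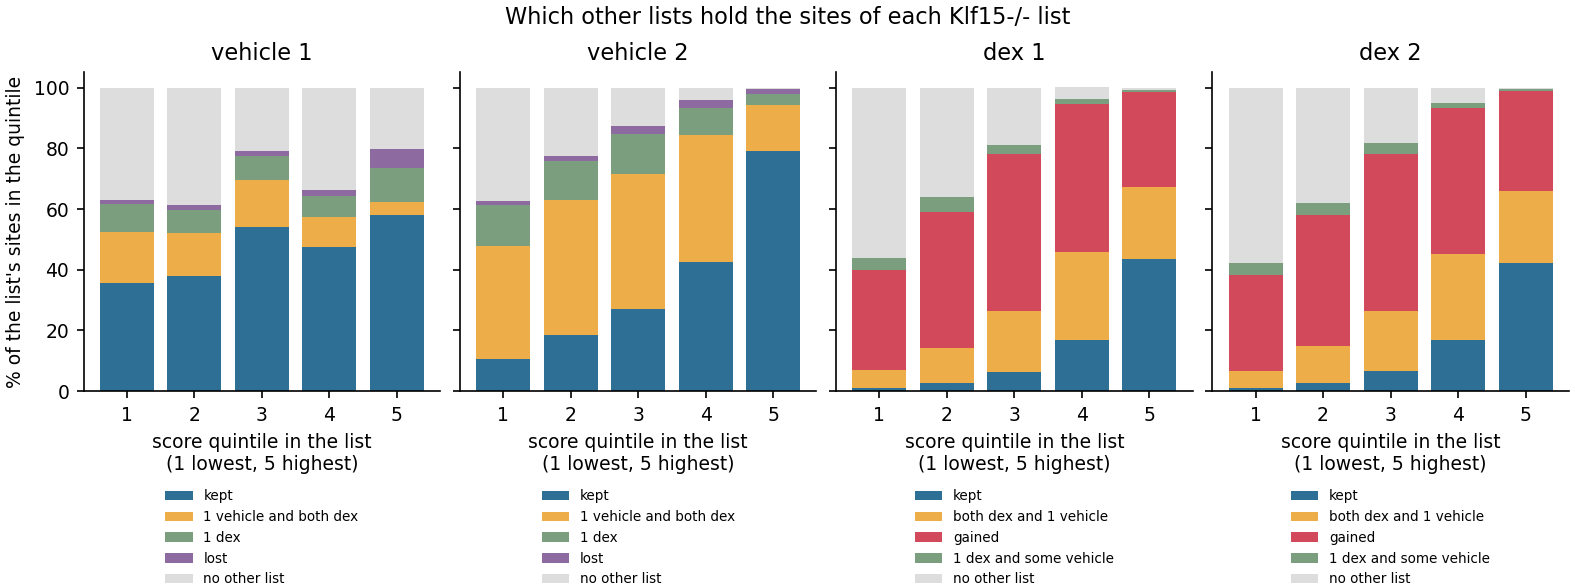
Share of the sites of each Klf15-/- list (y axis, %) that other lists also held, by score quintile within the list (x axis, 1 lowest and 5 highest). In the dex lists the kept share goes from 1.03% and 1.10% in the lowest quintile to 43.4% and 42.3% in the highest, while gained sites are most frequent in the third quintile.

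The 8 gained sites that ranked highest in the dex list where they ranked lower were all at or above percentile 99.83 in both dex lists. Coordinates are mm9, counted from 1, and no gene names are given because no annotation of that build was used. The first was chr7:71041939-71041979, at percentiles 99.97 and 99.97, with the nearest Klf15-/- vehicle summit 5.44 kb away. The second was chr17:3218628-3218631, at 99.94 and 99.96. The next were chr10:41613586-41613595, where a vehicle summit lay 0.495 kb away, and chr6:38785516-38785537, where the nearest was 20.8 kb away. The remaining 4 were chr10:24116051-24116066, chr8:96695431-96695432, chr15:78962078-78962092 and chr16:25059479-25059496. The site on chromosome 15 was the most isolated of the 8 from vehicle summits, at 101.3 kb. All 8 had summits in both wild-type dex lists. So did 50.6% of all gained sites, and 94.2% of those in the highest quintile by the lower dex percentile. The sites chr17:3218628-3218631, chr10:41613586-41613595 and chr8:96695431-96695432 also had a summit in the wild-type vehicle list, so at these 3 the absence without ligand was not shared by the wild-type library.

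The 6 kept sites with the highest rank in the list where they ranked lowest were at or above percentile 99.83 in all 4 lists. They were chr6:103599208-103599225, chr13:77578218-77578228, chr4:70039202-70039211, chr12:3109923-3110013, chr14:86598889-86598898 and chr5:152537178-152537205. All 6 had summits in the 3 wild-type lists too, as did 77.7% of all kept sites. Neither an input library nor the caller's control was examined, so receptor occupancy at these sites was not distinguished from signal that does not need the receptor.

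The 6 highest-ranked lost sites were chr15:74916125-74916253, chr9:3002118-3002218, chr13:74667114-74667114, chr17:3082370-3082807, chr3:13341100-13341106 and chr10:54608367-54608375. The first stood at percentiles 96.22 and 96.53 in the vehicle lists, with no wild-type summit and a dex summit 0.953 kb away. At chr13:74667114-74667114 both vehicle summits fell on the same base, at percentiles 97.45 and 92.46, and a dex summit lay 0.382 kb away. At chr17:3082370-3082807 a dex summit lay 0.212 kb away, just beyond the bound of 200 bp. At chr3:13341100-13341106 the nearest was 140.6 kb away, and at chr10:54608367-54608375 it was 310.2 kb away. Of these 6, chr9:3002118-3002218 and chr17:3082370-3082807 had summits in both wild-type dex lists and the other 4 had no wild-type dex summit. Of those 4, only chr13:74667114-74667114 had a wild-type vehicle summit.

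Among kept sites, the order of the scores differed between treatments more than between the dex replicates. Kept sites were ranked from 0 to 100 among themselves in each list, so that the same 2735 sites entered every ranking. The median absolute difference in rank was 9.36 between the dex lists and 18.9 between the vehicle lists. Between a dex list and the first vehicle list it was 22.3 and 22.4, and for the second vehicle list it was 18.7 against the second dex list and slightly less against the first, about the level seen between the vehicle replicates. The rank correlation (Spearman's rho over the 2735 sites, a description) was 0.847 between dex lists and 0.486 between vehicle lists. It was 0.491 and 0.486 between the second vehicle list and the dex lists, and 0.246 and 0.236 for the first. Both dex ranks lay above both vehicle ranks at 719 kept sites (26.3%) and below them at 728 (26.6%), and the ranks of the treatments overlapped at 1288 (47.1%). Because the same sites are ranked in every list, rises and falls in mean rank balance by construction. The counts therefore do not tell how many sites became stronger or weaker with dex. The mean rank differed by more than 50 at 239 sites (8.74%).

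The kept site whose dex ranks exceeded its vehicle ranks most was chr9:49624396-49624480. It had ranks of 10.16 and 1.32 among kept sites with vehicle and 99.01 and 99.38 with dex. At chr2:125356592-125356735 the vehicle ranks were 7.77 and 0.13 and the dex ranks 93.20 and 95.21. At chr13:102489489-102489518 they were 7.77 and 11.65 against 97.77 and 98.65, and at chr10:88927917-88927957 they were 4.46 and 20.71 against 98.39 and 98.32. In the second vehicle list as a whole the percentiles of the last pair were 33.41 and 47.94, so these sites ranked low among kept sites and not always low in the list. In the other direction, chr19:61341714-61341744 had vehicle ranks of 91.66 and 85.94 and dex ranks of 1.32 and 6.45. The others were chr9:3258864-3258875, chr7:137977974-137978068 and chr6:60637243-60637253. The last of these had vehicle ranks of 96.36 and 94.72 and dex ranks of 14.75 and 18.78. All 8 had a wild-type vehicle summit, as did 83.6% of all kept sites. At chr19:61341714-61341744 there was no summit of the second wild-type dex list, and the others had summits of both.

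The position of the summit inside a site entered the classes through the linkage, and the distance between replicate summits differed between the classes. Vehicle summits could bridge dex summits of kept sites and not those of gained sites, so the linkage allowed wider dex distances at kept sites. The largest extent of a site was 637 bp in the kept class and 347 bp in the gained class. How much this changed the dex medians, also at matched strength, was not tested. At kept sites the dex summits of the replicates lay a median of 33 bp apart (quartiles 13 and 63 bp), and at gained sites 41 bp (18 and 75 bp). By the median alone, this order turned at matched strength: in the upper 4 quintiles of the lower dex percentile the gained summits were closer. From the highest quintile down, the medians were 23 bp at gained and 29 bp at kept sites, 35 and 38 bp, 39.5 and 41 bp, and 47 and 51 bp. In the lowest quintile, with 74 kept sites, they were 56 and 51 bp. The share of sites with dex summits within 10 bp of each other did not turn in this way. In the second quintile from the lowest it was 12.8% at gained and 21.0% at kept sites. It was 15.4% and 19.7% in the third, and 15.3% and 19.5% in the fourth. In the highest it was 23.9% (21.2 to 26.8%) and 22.3% (20.2 to 24.5%), with overlapping intervals. In the lowest it was 11.5% and 12.2%. In lists of equal length the medians were 28 bp at gained and 30 bp at kept sites. The second vehicle summit lay a median of 42 bp from each dex summit of kept sites. The first vehicle summit lay 65 and 64 bp from them and 69 bp from the second vehicle summit.

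Wild-type summits at the same sites lay closer to the dex summits than those of the first vehicle library did. At 2125 kept sites held by all 3 wild-type lists, distances were taken from the mean position of the Klf15-/- dex summits. The median distance was 63 bp for the first and 36.5 bp for the second Klf15-/- vehicle library. It was 34 bp for the wild-type vehicle library and 29.5 and 27.5 bp for the wild-type dex libraries. Of all kept sites, 497 (18.2%, 16.7 to 19.7%) had more than 1 summit of the first vehicle list, against 14 (0.512%) for the second and 1 for each dex list. With the nearest of several summits taken, the first vehicle library still stood at 57.5 bp.

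Vehicle summits of lost sites coincided more closely than those of kept sites. The median distance between the vehicle summits was 22 bp at lost sites (quartiles 6 and 66 bp) and 69 bp at kept sites (28 and 121 bp). In lists of equal length the medians were 46.5 bp and 68 bp, and among summits at or above the median score 13 bp and 57 bp. Dex summits could bridge vehicle summits of kept sites and not those of lost sites, so the linkage allowed wider distances at kept sites. With 1 summit per list the medians were 19 bp at 143 lost and 63 bp at 2232 kept sites. How much of the difference came from the linkage was not tested. Summits within 10 bp of each other were found at 53 of 149 lost sites (35.6%, 27.9 to 43.8%) and at 346 of 2735 kept sites (12.7%, 11.4 to 14.0%). The gap was also seen at matched strength. In the fourth quintile of the lower vehicle percentile, 18 of 31 lost sites (58.1%, 39.1 to 75.5%) and 56 of 523 kept sites (10.7%, 8.19 to 13.7%) had summits within 10 bp. In the highest quintile it was 10 of 15 (66.7%, 38.4 to 88.2%) against 174 of 554 (31.4%, 27.6 to 35.5%). In the lowest quintile it was 1 of 25 against 32 of 502, and no difference was detectable.

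**Figure D3:**
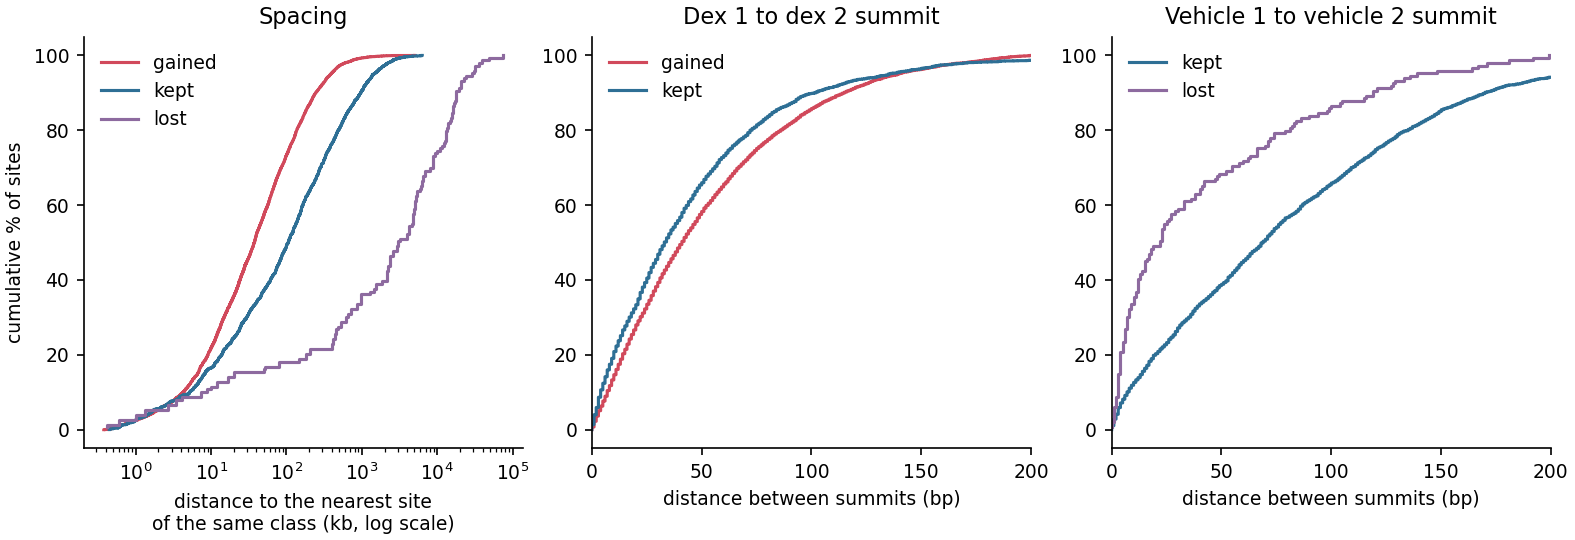
Left, cumulative share of gained, kept and lost sites (y axis, %) by distance to the nearest site of their own class (x axis, kb, log scale). Middle and right, the same by distance between the replicate summits of a site (bp, drawn up to 200 bp), for dex summits at gained and kept sites and for vehicle summits at kept and lost sites, where the lost curve lies above the kept one.

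Gained sites lay a median of 37.4 kb from the next gained site, kept sites 105.2 kb from the next kept site and lost sites 3055.7 kb from the next lost site. These distances depend on how many sites a class has: without the first vehicle library the median between kept sites was 56.6 kb, and in lists of equal length it was 166.9 kb between gained and 159.1 kb between kept sites. With the 2735 highest-ranked gained sites, as many as there were kept sites, the median was 110.1 kb, and 12.0% (10.8 to 13.3%) had another within 10 kb. For kept sites that share was 16.5% (15.1 to 17.9%). The 2735 lowest-ranked gained sites had a median of 163.3 kb and 7.61% (6.64 to 8.66%) within 10 kb. At equal number, kept sites thus had a neighbour within 10 kb more often than either set of gained sites, by intervals that cover counting error only. The upper quartile was 371.6 kb at kept and 340.5 kb at the highest-ranked gained sites. The sets were matched in number and not in strength.

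Measured against a common set, the sites held by both dex lists, the classes were closer together. The nearest other dex site was a median of 19.4 kb from gained sites and 14.7 kb from kept sites, and it lay within 10 kb of 34.0% (33.0 to 35.1%) of gained and 40.5% (38.7 to 42.4%) of kept sites. For sites of a single dex list the median was 25.8 kb. Gained sites were a median of 197.3 kb from the nearest kept site, and 592 of them (7.26%, 6.71 to 7.85%) had one within 10 kb. Without the first vehicle library the median from gained to kept sites was 70.4 kb.

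By definition gained sites had no vehicle summit within 200 bp, so their distances to vehicle summits are a description, without randomly placed sites for comparison. The nearest vehicle summit was a median of 38.4 kb away. It lay between 200 and 400 bp away at 141 gained sites (1.73%), just outside the linkage bound, and more than 100 kb away at 2170 (26.6%, 25.7 to 27.6%). Among kept sites, 270 (9.87%) were held together by a gap of more than 150 bp, just inside it. The percentile of gained sites differed little with that distance. The median in the dex lists was 56.3 and 58.2 at 365 gained sites within 1 kb of a vehicle summit and 50.1 and 50.3 at the 2170 beyond 100 kb.

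Lost sites were often beside a dex site. A dex summit lay between 200 and 400 bp away at 29 of 149 lost sites (19.5%, 13.4 to 26.7%) and between 400 and 1000 bp at another 25 (16.8%, 11.2 to 23.8%). With no dex summit allowed within 1000 bp, 95 lost sites were left. The 31 lost sites more than 100 kb from a dex summit had vehicle summits a median of 6 bp apart, and 19 of them (61.3%, 42.2 to 78.2%) had summits within 10 bp of each other. Among the 54 within 1 kb the median was 40 bp, with 15 (27.8%, 16.5 to 41.6%) within 10 bp.

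Most gained sites had no other gained site within 20 kb, although 73.3% had one within 100 kb. No set of randomly placed sites was compared. Linking gained sites at most 20 kb apart gave 6488 stretches, and 5241 gained sites (64.3%) were alone in theirs. There were 20 stretches of 5 or more, with 116 gained sites in all (1.42%). The most populated were chr3:54294247-54361088, with 9 gained sites and 1 kept site over 66.8 kb, and chr1:74045190-74117016, with 9 gained sites and no kept site over 71.8 kb. Next came chr2:167649087-167712029 and chr7:86400430-86468988 with 7 gained sites each. Their members differed in strength: the median of the lower dex percentile was 88.9 on chromosome 2 and 19.8 on chromosome 7. Of 4 stretches with 6 gained sites, the shortest was chr2:52797440-52828123, over 30.7 kb.

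Every autosome held gained and kept sites, and the gained share of dex sites varied within a narrow range. It was 56.7% over all chromosomes with a median of 56.6% per chromosome, and was highest on chromosome 7 at 61.6% (57.7 to 65.4%, 625 dex sites) and lowest on chromosome 18 at 50.5% (46.2 to 54.7%, 553 dex sites). These chromosomes were picked as the extremes of 19. The values for each vehicle library and for strong sites come from the lists that define the classes and are a description only. On chromosome 7, 84.0% of dex sites lacked a summit of the first and 64.8% a summit of the second vehicle list. On chromosome 18 the shares were 69.6% and 57.5%. Among dex sites above percentile 50 in both dex lists, the gained share was 48.3% (42.6 to 53.9%) on chromosome 7 and 32.7% (27.5 to 38.2%) on chromosome 18.

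**Figure D4:**
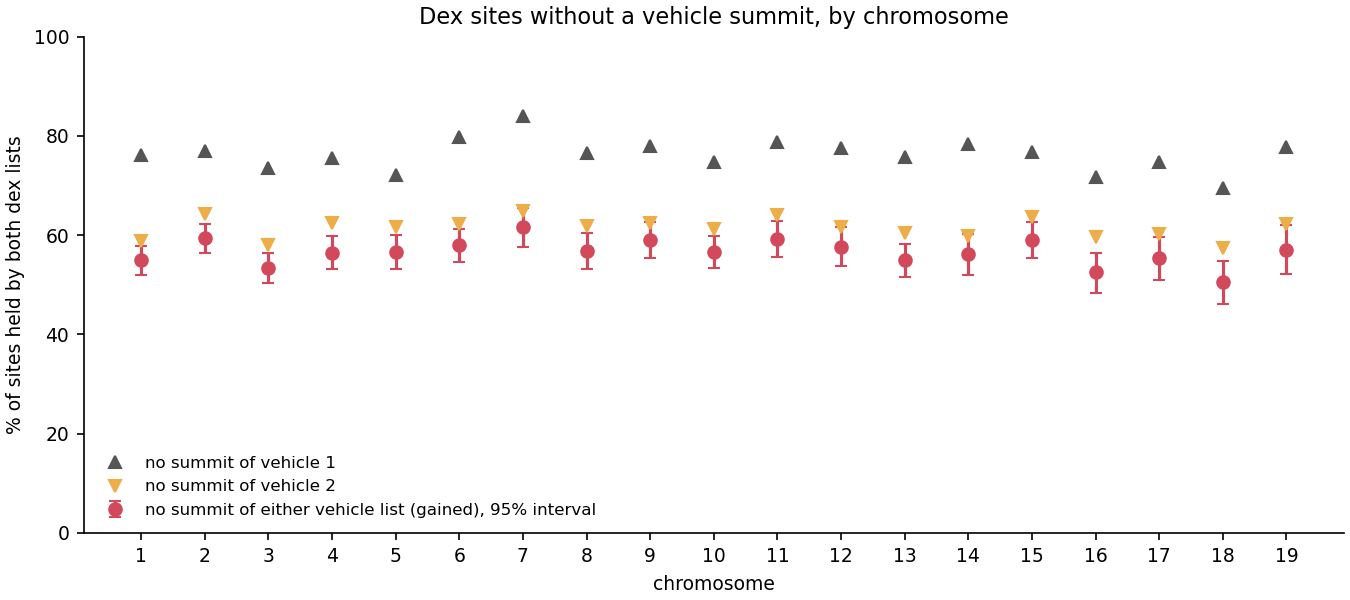
Share of the sites held by both dex lists (y axis, %) that lacked a vehicle summit, for each autosome (x axis); circles with exact 95% binomial intervals show sites without either vehicle list (gained) and triangles show sites without the first or the second vehicle list. Chromosome 7 is the highest at 61.6% and chromosome 18 the lowest at 50.5% for gained sites.

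Lost sites were few per chromosome, and their evenness was not compared with that of the larger classes. The 3 chromosomes with the most were picked from 19. Chromosome 1 held 20 of 149 (13.4%, against 7.40% of all sites), chromosome 5 held 19 (12.8%, 7.86 to 19.2%, against 5.95%) and chromosome 9 held 15 (10.1%, 5.74 to 16.1%, against 5.26%). No lost site was found on chromosomes 7 and 19, where 3 counts of 149, the limit set for a count of 0, is 2.01%, and the exact interval reaches 2.45%. Of the 149, 19 began below 4 Mb on their chromosome, against 48 of 2735 kept, 58 of 8151 gained and 347 of all 27747 sites. The window of chromosome 9 from 3 to 4 Mb alone held 10 lost sites, 16 kept sites and no gained site. It had 76 and 30 vehicle summits and 20 and 19 dex summits in the Klf15-/- lists, and 29, 23 and 23 summits in the wild-type vehicle and dex lists. Without this window and 3 others dense in vehicle summits, 132 lost sites were left.

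The wild-type lists had no part in defining the classes and separated gained from kept sites. A summit of the wild-type vehicle list lay within 200 bp of 1886 gained sites (23.1%, 22.2 to 24.1%), 1978 dex sites with a single Klf15-/- vehicle list (56.5%, 54.8 to 58.1%) and 2287 kept sites (83.6%, 82.2 to 85.0%). Both wild-type dex lists held 4122 gained sites (50.6%, 49.5 to 51.7%) and 2300 kept sites (84.1%, 82.7 to 85.4%). The gained sites with both wild-type dex lists and no wild-type vehicle summit numbered 2699 (33.1%, 32.1 to 34.1%), so that for these the same pattern was seen in wild-type cells. No wild-type list held 2257 gained sites (27.7%, 26.7 to 28.7%). Over all 27747 sites, 28.0% had a wild-type vehicle summit and 37.6% had both wild-type dex lists.

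Among the strongest dex sites the classes differed by less than counting error in the wild-type dex lists and stood apart in the wild-type vehicle list. In the highest quintile of the lower dex percentile, both wild-type dex lists held 868 of 921 gained sites (94.2%, 92.5 to 95.7%) and 1376 of 1445 kept sites (95.2%, 94.0 to 96.3%). The wild-type vehicle list held 188 of the gained sites (20.4%, 17.9 to 23.2%) and 1335 of the kept sites (92.4%, 90.9 to 93.7%). In the lowest quintile, both wild-type dex lists held 28.6% (26.7 to 30.6%) of 2100 gained and 47.3% (35.6 to 59.3%) of 74 kept sites. There the wild-type vehicle list held 18.7% (17.1 to 20.4%) and 64.9% (52.9 to 75.6%). The share of gained sites with a wild-type vehicle summit stayed between 18.7% and 29.3% in all 5 quintiles. The gap in the highest quintile was also seen with either Klf15-/- vehicle library used alone. Sites without a summit of the first had a wild-type vehicle summit in 38.5% (35.9 to 41.0%) of cases and sites with one in 90.6% (89.1 to 92.0%). For the second the shares were 26.1% (23.5 to 28.9%) and 86.1% (84.5 to 87.6%).

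**Figure D5:**
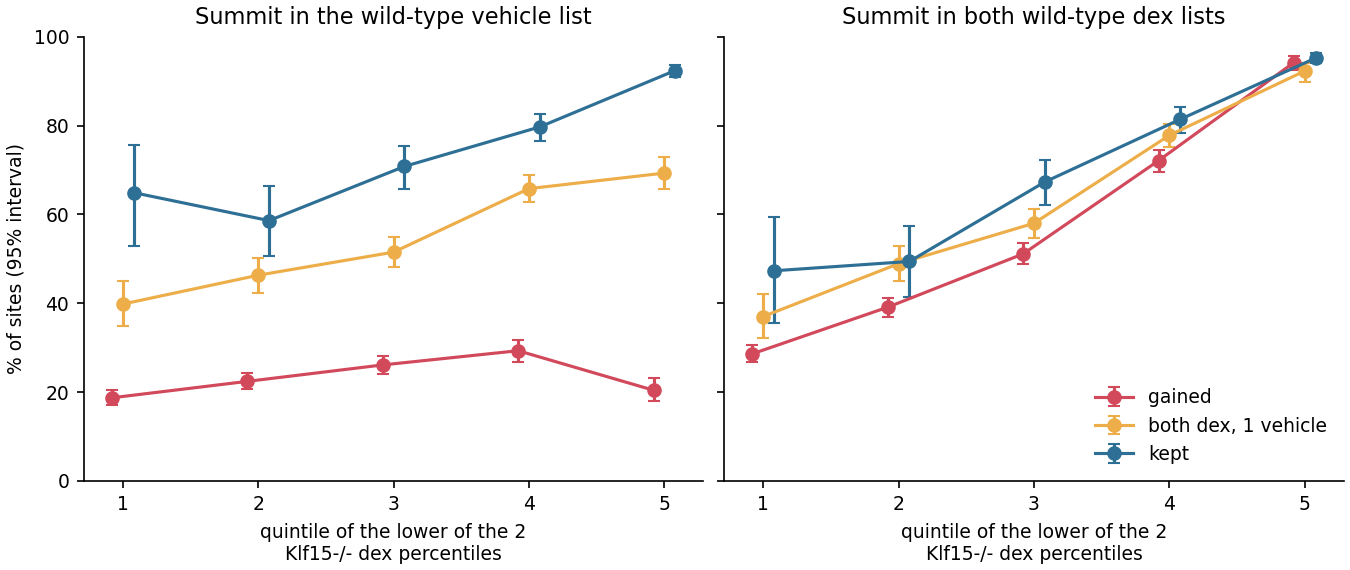
Share of sites held by both Klf15-/- dex lists (y axis, %, with exact 95% binomial intervals) that had a summit in the wild-type vehicle list (left) or in both wild-type dex lists (right), by quintile of the lower Klf15-/- dex percentile (x axis). In the highest quintile gained and kept sites meet at 94.2% and 95.2% on the right and stand at 20.4% and 92.4% on the left.

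Lost sites were found in wild-type cells less often than kept sites. The wild-type vehicle list held 64 of 149 (43.0%, 34.9 to 51.3%), and both wild-type dex lists held 20 (13.4%). These shares rested on the lists required. Without the first or second Klf15-/- vehicle library, the wild-type vehicle list held 192 of 1340 and 197 of 1969 lost sites, and both wild-type dex lists held 5.90% and 3.30%. Without the first or second Klf15-/- dex library, both wild-type dex lists held 23.6% and 25.4%. With a linkage gap of 100 bp they held 31.7%, and with wild-type summits counted within 500 bp 28.2%. A wild-type vehicle summit with no wild-type dex summit, the same pattern as in Klf15-/- cells, was found at 21 lost sites (14.1%, 8.94 to 20.7%), and 71 (47.7%, 39.4 to 56.0%) had no wild-type summit at all. Among the 31 lost sites more than 100 kb from a Klf15-/- dex summit, 6 (19.4%, 7.45 to 37.5%) had a wild-type vehicle summit and 2 had both wild-type dex lists. Among the 54 within 1 kb, 31 (57.4%, 43.2 to 70.8%) had a wild-type vehicle summit. Sites of the first Klf15-/- vehicle list alone were in no wild-type list in 88.4% (86.8 to 89.9%) of cases, and those of the second alone in 80.3% (77.9 to 82.5%).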

How the data were processed

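ChIP-seq summit lists of 7 libraries were used, 4 of them for the comparison. Per the submitters' processing notes, CASAVA, Bowtie2 and SAMtools were used with mm9 as the build. For the peak caller, the control and the threshold the entry is: not given in the sources used here. The score column holds the authors' deposited value per summit, on a scale that is not stated, and was used only within its own list. The read depth is unknown, so no model was fitted.

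Summits on chromosomes 1 to 19 were linked (single linkage, at most 200 bp between neighbours). A site took its highest-scoring summit in each list, and percentiles were computed over the summits of chromosomes 1 to 19. A wild-type summit counted within 200 bp of any summit of the site. Intervals of shares are 95% Clopper-Pearson (exact binomial) and cover counting error alone. Sites are not replicates. Sites were named as the 8 gained, 6 kept and 6 lost sites with the highest percentile in the list where they ranked lowest, the 4 kept sites with the largest and the 4 with the smallest dex rank relative to vehicle, and the 5 stretches with the most gained sites, ties going to the shorter. Sites on chromosome 18 were counted and not named, and none met the rule.

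The members and rules were chosen with earlier results of these data known. Intervals and the permutation test came from scipy 1.17.1, tables from pandas 2.3.3 and plots from matplotlib 3.10.9, under Python 3.11.15. In a check on simulated lists with planted sites for this comparison (22795 sites), 99.9% of the planted number of gained, 100.0% of kept and 100.7% of lost sites were found. The summits planted for a site lay closer together than the linkage bound, so they linked by design and the check covers the code only. Wider gaps and several summits of 1 list in a site were not planted, although 31.8% of kept sites had a gap of over 100 bp. Genes and sequence motifs are not analysed here, because the gene and promoter tables at hand were of another build.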

Additional observations from a re-analysis of the deposited data

How the results depend on the processing

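Linkage gaps of 100 and 500 bp gave 7430 and 8235 gained, 2120 and 2846 kept, and 218 and 107 lost sites. The gained share of dex sites was 58.5% and 55.9%, and the kept share of sites of both vehicle lists 81.8% and 91.6%. Summits at or above the median score of their list gave 4418 gained and 1233 kept sites, with shares of 58.7% and 81.2%. Lists of equal length gave 1835 gained, 1937 kept and 576 lost sites, with shares of 36.7% and 66.0%. There kept sites outnumbered gained sites, and the median distance between dex summits was smaller at gained (28 bp) than at kept sites (30 bp). Both went against the order as reported. With all chromosomes the kept share was 85.2%. Requiring no summit of the other treatment within 1000 bp left 95 lost sites and a gained share of 54.1%, and requiring no wild-type vehicle summit left 6265 gained sites (43.5%). Leaving out each library in turn gave 8844 to 12918 gained, 2792 to 5527 kept and 263 to 1969 lost sites, a gained share of 61.5% to 76.4% and a kept share of 57.6% to 91.4%. Fewer lists are then required, which widens a class by construction. No paired analysis was possible because the classes are counted without a fitted model that could hold a block for the replicate number. As a description, each same-numbered pair classed on its own gave 15839 and 13758 gained, 3590 and 5868 kept, and 2337 and 1813 lost sites, with gained shares of 81.5% and 70.1% and kept shares of 60.6% and 76.4%. The first vehicle library shared 63.0% of its sites with the first and 62.7% with the second dex library, so the numbers did not pair the libraries visibly. Leaving out 4 windows dense in vehicle summits, chosen after seeing the data, moved none of these counts by over 1.5 times. Of 348 recomputed values, 188 stayed within their bounds and 160 moved. Of the 70 among them that were class counts or the gained and kept shares, 31 stayed and 39 moved. Counts and distances had to stay within 1.5 times the reported value and shares within its 95% interval. Median percentiles had to stay within the SD of the list medians. Some settings fixed a value by construction, such as the kept count when only gained sites were filtered.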

Other observations

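Chromosomes X, Y and M lay outside the comparison. There the 4 Klf15-/- lists gave 1221 sites, of which 160 had the gained, 145 the kept and 63 the lost pattern. On chromosome X the vehicle lists held 637 and 307 of 7325 and 8088 summits and the dex lists 485 and 462 of 19999 and 20169. On chromosome Y they held 197 and 78 with vehicle and 75 and 75 with dex.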
